A study of Mus musculus with 2 samples.

Results

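The cytochrome P450 genes of mouse kidney were compared between whole-body Iah1-knockout (Iah1-KO) and wild-type (Iah1-WT) males, leaving out the Cyp4 and Cyp2d families and Cyp27b1, Cyp24a1 and Cyp51. Members were the genes whose platform symbol is Cyp followed by a number, each taken at its brightest probe set. There were 65 of them among 22180 genes, in 30 subfamilies, and 1 was a pseudogene (Cyp2c53-ps). Iah1 is named for an esterase that cleaves isoamyl acetate. Kidneys came from male Iah1-WT and male Iah1-KO mice that had eaten standard chow up to the age of 6 weeks and then a high-fat diet for 12 weeks, singly housed and fasted for 4 hours before they were killed. Both groups shared the diet, the sex and the fast, and chow-fed animals are not part of the comparison. For each genotype, RNA of 3 mice was pooled on 1 Affymetrix whole-transcript array, so every difference below is between 2 pools, has no replicate check and carries no test. The construction of the Iah1 allele was not described in the labels.

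Cytochrome P450 enzymes are haem proteins that insert 1 oxygen atom into a substrate with electrons passed on by a reductase. Members of families 1 to 3 oxidise drugs, steroids and fatty acids, the Cyp2j and some Cyp2c enzymes form epoxides from arachidonic acid, and families 7, 8, 27, 39 and 46 hydroxylate cholesterol, its oxysterols and bile acid precursors. Family 26 breaks down retinoic acid, and families 11, 17 and 21 make steroid hormones. In the kidney, most drug- and fatty acid-metabolising P450 signal is known to come from the proximal tubule.

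The targeted gene was examined first. Iah1 was at 9.09 on the log2 scale in the Iah1-WT pool and at 3.60 in the Iah1-KO pool, below the median of that array, 4.03. Values are log2 RMA values, which are background-adjusted, quantile-normalised and summarised per probe set. A value of 6 on either array was taken as the expression floor, which 7671 of 22180 genes reached. The middle 95% of those genes differed by between -0.30 and 0.35 (Iah1-KO minus Iah1-WT), with a median of 0.01. The spread quoted beside a gene is the robust SD of the difference over the 500 genes nearest to it in mean signal; it describes genes on these arrays and not mice. In bulk tissue, fewer cells of a type and less RNA per cell cannot be told apart.

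Of the 65 P450 genes, 15 reached the floor, 13 of them on both arrays. In the Iah1-KO pool 10 of the 15 were lower, where 3653 of all 7671 genes at the floor were. Counting both directions, 8 of the 15 differed by more than the spread of genes of like signal. The share of all genes that did so was not computed, so this count has no background to be read against. Of the 8, Cyp2c23, Cyp2f2 and Cyp2e1 passed narrowly, at 1.0003, 1.0465 and 1.0892 times the spread. The median difference of the 15 was -0.11, against 0.01 over all genes at the floor. Differences of the 15 ran from -0.26 (Cyp2j9) to 0.47 (Cyp39a1). At a threshold of 1.2-fold, 1 member was higher, where 5.36% of all 7671 genes were, and 0 were lower, where 3.77% were. That member, Cyp39a1, reached the floor on the Iah1-KO array alone. Cyp2j9 at 1.197-fold and Cyp7b1 at 1.191-fold lower lay just short of that threshold; Cyp2j9 passed it once differences were centred on the median of all genes (-0.27) or corrected by loess on signal (-0.28). At 1.5-fold, 0 members were higher and 0 lower, where 0.222% and 0.209% of all genes were. One gene of 15 is near the background share.

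**Figure D1:**
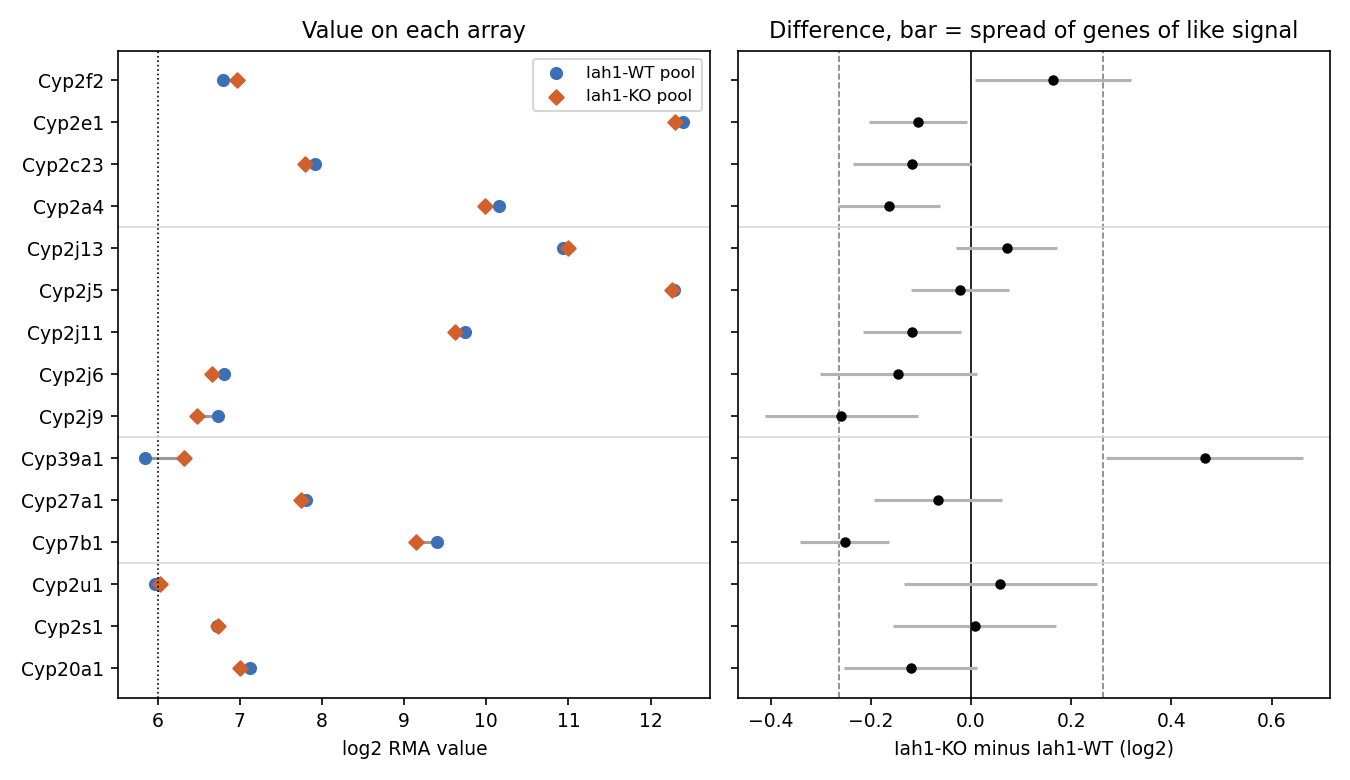
Left, log2 RMA values of the 15 P450 genes at or above the floor (dotted line at 6) in the Iah1-WT pool (circles) and the Iah1-KO pool (diamonds), grouped by role from top to bottom: drug and steroid metabolising, Cyp2j, bile acid and oxysterol, others. Right, the difference Iah1-KO minus Iah1-WT, with bars showing the robust SD of the 500 genes nearest in signal and dashed lines at 1.2-fold; Cyp39a1 alone lies beyond them, at 0.47.

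The Cyp2j subfamily had 5 of its 7 members at the floor, the most of any subfamily here. Its genes stand side by side on chromosome 4 in the RefSeq order Cyp2j13, Cyp2j12, Cyp2j11, Cyp2j8, Cyp2j6, Cyp2j9, Cyp2j5. For reference, the 250 bases before the start site of the 5 with signal are printed, 5′ to 3′ on the gene's strand, from RefSeq's table for GRCm38.p6 (chr4:96077541-96077790, strand -; chr4:96348681-96348930, strand -; chr4:96553652-96553901, strand -; chr4:96591486-96591735, strand -; chr4:96664120-96664369, strand -). Any bearing of these sequences on the differences was not tested. Capitals mark matches on either strand to the 6 motifs searched.
Cyp2j13: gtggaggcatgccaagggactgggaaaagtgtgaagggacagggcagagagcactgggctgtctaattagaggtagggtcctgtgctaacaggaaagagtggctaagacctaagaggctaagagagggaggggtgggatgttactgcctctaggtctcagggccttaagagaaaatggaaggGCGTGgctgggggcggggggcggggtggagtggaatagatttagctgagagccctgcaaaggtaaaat
Cyp2j11: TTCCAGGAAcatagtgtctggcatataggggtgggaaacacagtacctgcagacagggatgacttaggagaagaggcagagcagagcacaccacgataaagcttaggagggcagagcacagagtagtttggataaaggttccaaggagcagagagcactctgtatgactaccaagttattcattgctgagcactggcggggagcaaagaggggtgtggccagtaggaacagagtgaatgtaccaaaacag
Cyp2j6: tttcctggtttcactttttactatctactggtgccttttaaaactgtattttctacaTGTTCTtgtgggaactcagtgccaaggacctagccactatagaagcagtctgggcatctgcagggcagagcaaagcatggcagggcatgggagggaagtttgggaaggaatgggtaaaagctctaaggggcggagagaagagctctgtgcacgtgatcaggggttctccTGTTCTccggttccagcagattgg
Cyp2j9: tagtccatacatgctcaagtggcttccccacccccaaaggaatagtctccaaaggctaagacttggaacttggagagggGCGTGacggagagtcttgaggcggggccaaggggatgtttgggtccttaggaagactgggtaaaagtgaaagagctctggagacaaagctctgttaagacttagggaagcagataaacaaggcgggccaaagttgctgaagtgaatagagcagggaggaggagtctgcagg
Cyp2j5: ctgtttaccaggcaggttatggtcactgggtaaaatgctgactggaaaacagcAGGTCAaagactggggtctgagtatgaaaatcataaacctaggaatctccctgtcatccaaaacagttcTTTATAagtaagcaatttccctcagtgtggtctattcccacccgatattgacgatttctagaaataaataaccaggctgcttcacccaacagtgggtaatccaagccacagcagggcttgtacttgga

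The motifs were AGGTCA (HNF4 half-site), GTTAAT (HNF1 half-site), TTCNNNGAA (the palindrome bound by STAT5 and BCL6), GCGTG (core of the xenobiotic response element), AGAACA (steroid receptor half-site) and TATAAA. None of the motifs was shared by all 5 windows. Cyp2j9 and Cyp2j13 each held GCGTG, which occurs in 28% of the 27025 promoters of the same length. Cyp2j6 held AGAACA at 2 places, both on the opposite strand and so printed as TGTTCT (16.2% of promoters hold it). The Cyp2j11 window begins with TTCNNNGAA (7.11%), and the Cyp2j5 window held AGGTCA (14%) and, on the opposite strand, TATAAA (12.9%). A match is a run of letters and not a measured binding site. Cyp2j13 has a pair of RefSeq starts a few bases apart, of which the downstream one was used.

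Cyp2j9, an arachidonic acid-metabolising enzyme known from brain, was at 6.73 in the wild-type pool and at 6.47 in the knockout pool. Its difference of -0.26 was 1.695 times the spread of its neighbours in signal (0.15), and ranked 718 of 7671 by size. Its neighbour on the chromosome, Cyp2j6, was at 6.81 and 6.66, a difference of -0.15 against a spread of 0.16. Cyp2j11 was at 9.73 and 9.62, a difference of -0.12 against a spread of 0.10.

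Cyp2j5, which forms epoxides and hydroxy acids from arachidonic acid in the proximal tubule, had values of 12.28 and 12.26, at ranks 24 and 26 of all genes on the respective arrays. Its difference of -0.02 was within the spread of 0.10. Cyp2j13 had values of 10.927 and 10.998 and was the 1 Cyp2j gene at the floor with a higher value in the Iah1-KO pool, by 0.07, also within its spread of 0.10. The Cyp2j genes of highest signal thus differed less between the pools than Cyp2j9 did. The median of the 5 was -0.12. Below the floor, Cyp2j8 was at 3.52 and 4.24 and Cyp2j12 at 3.22 and 2.59, opposite in direction, at signals where the spread of genes was 0.27 and 0.26. Cyp2j paralogs resemble each other closely, and how far their probe sets share signal is not known here.

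Of the 37 drug- and steroid-metabolising members, 4 reached the floor, and 3 of these were lower in the Iah1-KO pool. Cyp2e1, which oxidises ethanol, acetone and fatty acids, ranked 19 of 22180 genes on the Iah1-WT array and 25 on the Iah1-KO array. Such ranks order probe set signals, and probes of different genes differ in sensitivity, so they are not an order of mRNA amounts. Cyp2e1 was at 12.40 and 12.29, a difference of -0.11 against a spread of 0.10.

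Cyp2a4, a steroid 15-alpha-hydroxylase, was at 10.15 and 9.99. This difference of -0.16 was 1.60 times the spread of 0.10. Its near-identical paralog Cyp2a5, named here for that reason and not by the rule for named genes, was at 3.13 and 3.44, and the division of signal between these paralogs is uncertain. Cyp2c23, the arachidonate epoxygenase of the renal tubule, was at 7.92 and 7.80, and its difference of -0.12 equalled the spread of genes of its signal to 2 decimals. It was the only one of 15 Cyp2c members at the floor. Cyp2f2, best known for oxidising naphthalene in airway cells, went the other way, at 6.80 and 6.96, a difference of 0.16 with a spread of 0.16. Its dimmer second probe set was at 4.78 and 5.05, in the same direction.

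The other 33 members of this role lay below the floor on both arrays. Cyp2c38 had the largest difference of all 65 members, -1.14, from 3.60 to 2.46, and Cyp2c70 the largest upward one, 0.83, from 2.56 to 3.38. The spread of genes of their signal was 0.24 and 0.25. Both lie below the array medians of 4.05 and 4.03 and are not shown to be above background. The aryl hydrocarbon receptor targets Cyp1a1 and Cyp1a2, named although outside the rule, were also that dim, at 3.43 and 3.34 and at 3.30 and 3.26. The other family 1 member, Cyp1b1, likewise outside the rule, was brighter, at 5.32 and 5.50. It was above the array medians but below the floor, with a difference of 0.18 within a spread of 0.21. No Cyp3a or Cyp2b member reached the floor.

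Of the 15 members at the floor, the 2 that stood furthest from genes of like signal were in the sterol group, and they pointed in opposite directions. Cyp7b1, the oxysterol 7-alpha-hydroxylase that acts on side-chain-hydroxylated cholesterol (probe set 17404245), was at 9.40 in wild type and at 9.14 in the knockout. That difference of -0.25 was 2.87 times the spread of 0.09 and ranked 769 of 7671 by size. Cyp39a1, the 7-alpha-hydroxylase of 24-hydroxycholesterol (probe set 17337816), was at 5.85 and 6.32, 1.38-fold higher. Its difference of 0.47 was 2.38 times the spread of 0.20 and ranked 111 of 7671, but it reached the floor on the Iah1-KO array alone and a gene that dim enters through its higher value. Cyp27a1, the mitochondrial sterol 27-hydroxylase, was at 7.81 and 7.74, and its difference of -0.07 was within the spread of 0.13.

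The remaining sterol members were dim. Cyp46a1, the cholesterol 24-hydroxylase known from brain, was at 4.90 and 5.08, a difference of 0.18 within a spread of 0.26. Cyp8b1, the 12-alpha-hydroxylase of bile acid synthesis in liver, was at 4.25 and 3.57, a difference of -0.69 against a spread of 0.26. The hepatic rate-limiting enzyme Cyp7a1, named outside the rule as the last of this group, was at 2.28 and 2.33.

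**Figure D2:**
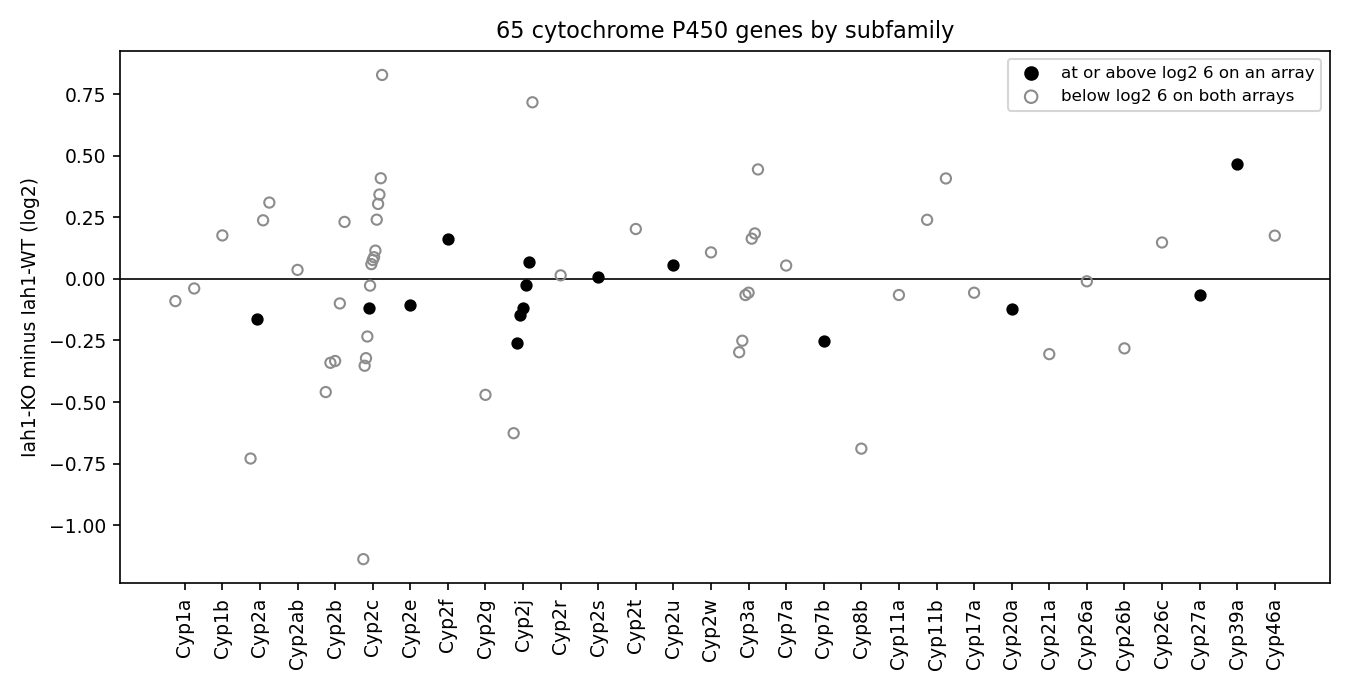
Difference Iah1-KO minus Iah1-WT on the log2 scale (vertical axis) for the 65 P450 genes, 1 point a gene, by subfamily (horizontal axis). Filled points reached log2 6 on at least 1 array and lie between -0.26 and 0.47; open points stayed below it and scatter from -1.14 to 0.83.

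Among the members of other or little-known function, Cyp20a1, an orphan P450, was at 7.125 and 7.004, a difference of -0.12 against a spread of 0.13. Cyp2s1, an epithelial P450, was at 6.73 and 6.74, the smallest difference of the 15 members (0.01). Cyp2u1, which hydroxylates long-chain fatty acids, was at 5.97 and 6.03, a difference of 0.06, and touched the floor on the Iah1-KO array only. All 3 differences were within the spread. Below the floor, Cyp2t4 was at 2.54 and 2.75 and Cyp2w1 at 3.60 and 3.71. Cyp2r1, a microsomal vitamin D 25-hydroxylase, was at 4.76 and 4.77.

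All 5 steroid hormone members were below the array medians on both arrays. Cyp11a1, the side-chain cleavage enzyme, was at 3.38 and 3.31 and Cyp17a1, the 17-alpha-hydroxylase, at 3.56 and 3.51. Cyp21a1, the 21-hydroxylase, was at 3.05 and 2.75. The 11-beta-hydroxylase Cyp11b1 was at 2.12 and 2.53 and the aldosterone synthase Cyp11b2 at 2.70 and 2.94. Of these enzymes, Cyp11a1, Cyp21a1, Cyp11b1 and Cyp11b2 mark adrenal cortex in the mouse. The list of other adrenal markers also had 0 of 9 measured genes at the floor, with a summed level of 7.04 and 6.96 (log2 of the sum of linear values). Star, the cholesterol transporter of adrenal cortex, was at 4.39 and 4.17. Adrenal markers were thus below the floor in both pools.

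The retinoic acid hydroxylases were below the floor too. Cyp26b1 was at 4.47 and 4.18, a difference of -0.28 against a spread of 0.29, and Cyp26c1 at 3.39 and 3.54. Of the other genes of retinoic acid handling, 3 of 9 were at the floor and all 3 were lower: Aldh1a1, a retinaldehyde dehydrogenase, by a difference of -0.46 (7.06 and 6.60), the retinaldehyde reductase Dhrs3 by -0.10 and the retinol dehydrogenase Rdh10 by -0.05. The median of these 3 was -0.10, whereas over all 9 measured genes it was 0.037. Of the genes below the floor, the retinaldehyde dehydrogenase Aldh1a2 differed by 0.74, the retinol-binding protein receptor Stra6 by 0.39 and the retinol carrier Rbp4 by 0.31.

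In all, 50 members lay below the floor on both arrays, 40 of them below the median of each array. At 1.2-fold, 8 of the 50 were higher and 13 lower, which are 16.0% and 26.0%; of all 14509 genes below the floor, 12.9% and 15.7% were. The median difference of the 50 was 0.03, against -0.01 over the 14509 genes. Genes of their signal had spreads between 0.19 and 0.29, compared with 0.09 to 0.20 for the 15 at the floor.

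**Figure D3:**
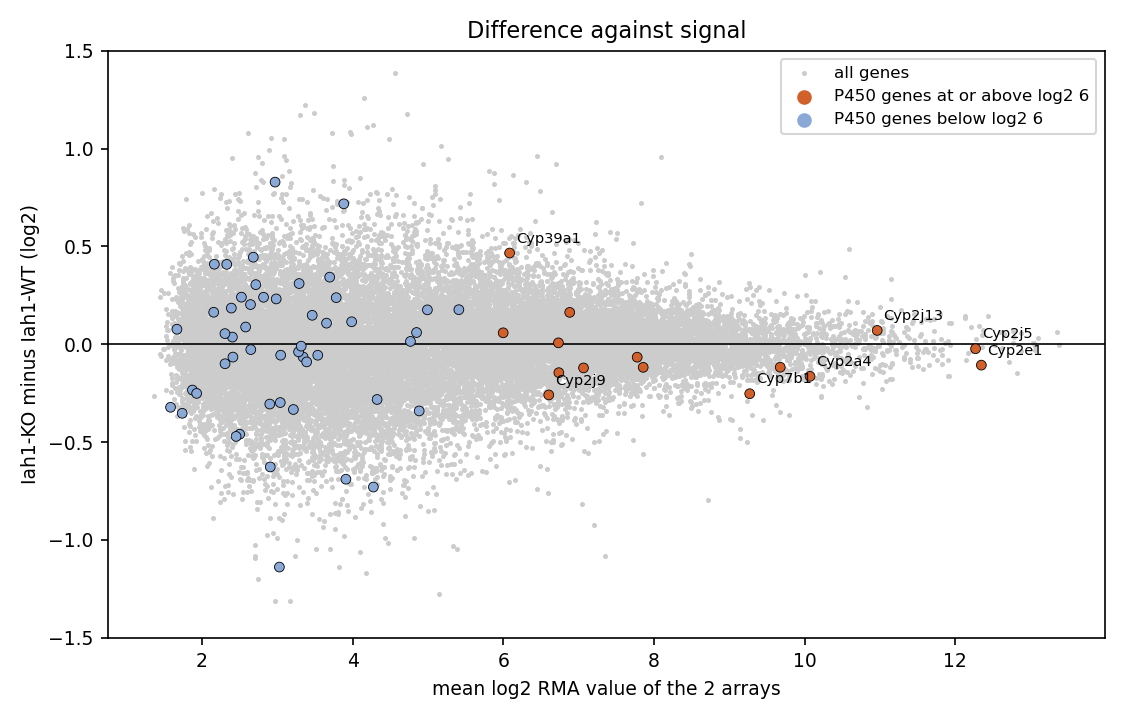
Difference Iah1-KO minus Iah1-WT (log2, vertical axis) against the mean log2 RMA value of both arrays (horizontal axis) for all genes (grey) and the P450 genes at or above (orange) or below (blue) the floor; 5 genes lie outside the plotted range. The cloud of all genes is narrower at high than at middle signal, and Cyp7b1 at -0.25 and Cyp39a1 at 0.47 lie towards its edges.

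Genes that serve or regulate P450 enzymes were taken from fixed lists. Their counts stand beside 52.4% of all genes at the floor that were higher by any amount. Redox partners had 8 of 9 measured genes at the floor, 6 higher and 2 lower, with a median of 0.04 and 0 beyond 1.2-fold. Pgrmc2, a haem-binding membrane protein, differed by -0.25, the cytochrome b5 reductases Cyb5r1 and Cyb5r3 by 0.22 and 0.10, and the mitochondrial electron carrier Fdx1 by 0.09. The reductase gene Por was not analysed here. Epoxide hydrolases, which open the epoxides made by Cyp2j and Cyp2c enzymes, had Ephx1 at 0.15 and Ephx2 at -0.01.

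Haem synthesis and breakdown genes had 10 of 11 at the floor, 7 higher and 3 lower, with a median of 0.14. At 1.2-fold, 1 was higher, where 5.36% of all genes were. That one was Hmox1, the haem oxygenase, at 6.10 and 6.46. Uros, Blvra and Alas1, the rate-limiting enzyme of haem synthesis, differed by 0.26, 0.23 and 0.20; Uros reached the floor on the Iah1-KO array alone. Regulators of P450 genes had 10 of 18 at the floor, 7 higher and 3 lower, with a median of 0.12. At 1.2-fold, 1 of these 10 was higher, where 5.36% of all genes at the floor were. This was the transcription factor Stat5a, at 6.08 and 6.60, while its paralog Stat5b differed by 0.22. Nr1h4, the bile acid receptor, was at 8.98 and 8.72, a difference of -0.25 against a spread of 0.10, and the retinoic acid receptor Rara, at the floor on the Iah1-KO array alone, differed by 0.22. Of the aryl hydrocarbon receptor targets outside the P450 genes, Nqo1 differed by -0.14 and Tiparp by 0.08.

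**Figure D4:**
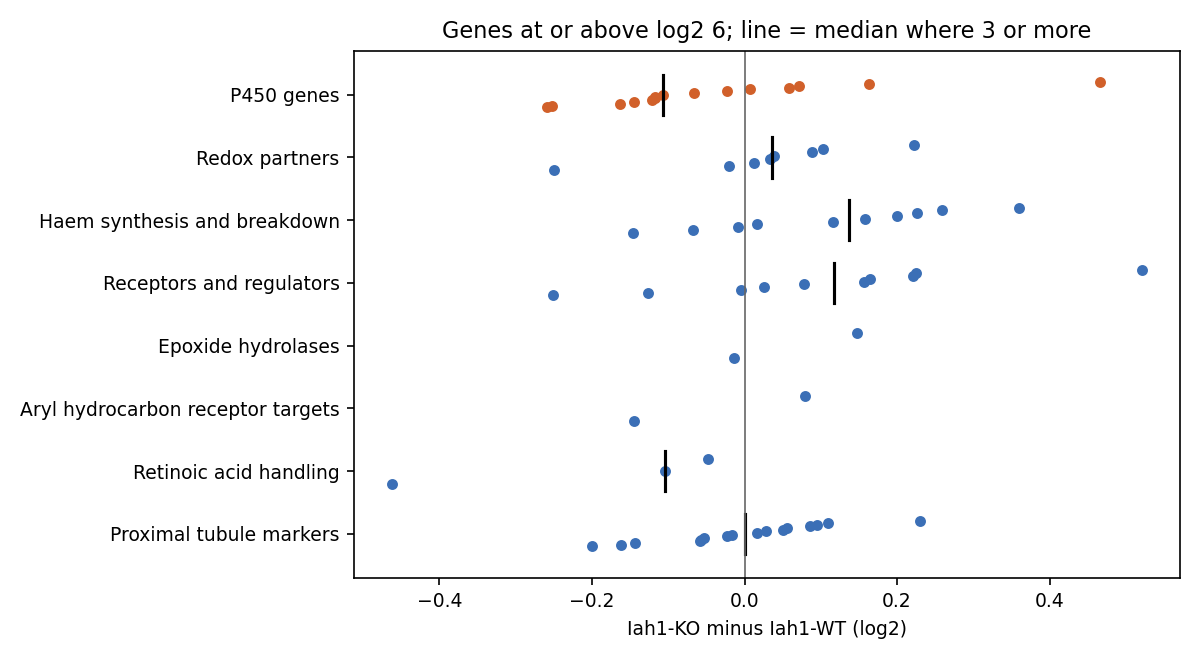
Difference Iah1-KO minus Iah1-WT (log2, horizontal axis) of genes at or above the floor in each list (rows), 1 point a gene, with a black line at the median where a list has 3 or more. The P450 genes have a median of -0.11, haem genes of 0.14, regulators of 0.12 and proximal tubule markers of 0.00.

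Cell type markers were read beside these values. Of all genes at the floor, 52.4% were higher by any amount, and at 1.2-fold 5.36% were higher and 3.77% lower. All 16 proximal tubule markers were at the floor, 8 higher and 8 lower, with a median of 0.00, 0 beyond 1.2-fold and a summed level of 15.41 and 15.40. Markers of hepatocytes, which share many P450 genes with the tubule, had 5 of 11 at the floor, 4 of them higher and 3 beyond 1.2-fold (Serpina1c 0.42, Alb 0.40, Apoa2 0.38), where 5.36% of all genes were. Serpina1c reached the floor on the Iah1-KO array alone. The summed hepatocyte level was 12.10 in both pools, with Ttr and Apob, at -0.19 and 0.07, carrying most of the weight. Endothelial markers had 6 of 7 higher, with a median of 0.10 and 0 beyond 1.2-fold. Macrophage markers had 4 of 8 at the floor, 3 of them higher and 2 beyond 1.2-fold (Lyz2 at 0.63 and Cx3cr1 at 0.41, the latter at the floor on the Iah1-KO array alone). Among the dimmer macrophage markers, Adgre1 differed by -0.73 (5.10 and 4.37) and Cd68 by -0.23, but C1qc by 0.30 and C1qa by 0.04. The summed level of the macrophage list was 9.30 and 9.43. Collecting duct and loop of Henle markers had 6 of 6 at the floor, 3 higher and 3 lower, with 1 beyond 1.2-fold in each direction. These were Aqp2, the water channel of principal cells, at 0.49, and Atp6v1g3, a proton pump subunit of intercalated cells, at -0.81 (7.46 and 6.64, with a spread of 0.13). Adipocyte markers had 1 of 6 at the floor (Fabp4, -0.07) and urothelial markers 0 of 5. Their part in the P450 differences was not tested.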

How the data were processed

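The authors deposited log2 expression values per probe set for 2 arrays, which the submitters' processing notes ascribe to RMA and to Affymetrix Expression Console (version 1.3.0). Quantile normalization in RMA hides a shift common to most genes, and dim differences are compressed. No genome build of the array annotation was given in these sources. Of 41345 probe sets, 23521 carried exactly 1 symbol in GEO's platform annotation; these gave 22180 genes, each at its brightest probe set. All 65 member symbols are in RefSeq's GRCm38.p6 gene table, and 53 members, 11 of those at the floor, have a promoter entry.

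Differences, medians and counts at 1.2-fold were computed with Python 3.11.15, numpy 2.4.6 and pandas 2.3.3, after a check on simulated data. The spread is the median absolute deviation times 1.4826. With 1 array per genotype no test was made, and precision is limited by the number of arrays. The members and lists were chosen with earlier results of these data known. Named were all members at the floor, the 2 dim members of each role with the largest difference, all steroid hormone members and up to 4 genes at the floor per partner or regulator list; cell type markers, dim genes of these lists and a few members were named after their values were seen. Alternatives were floors of 5, 7 or none, centring, loess (span 0.3, statsmodels 0.14.6), the mean over probe sets, a threshold of 1.5-fold, the mean and leaving out pseudogenes.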

Additional observations from a re-analysis of the deposited data

How the results depend on the processing

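No paired analysis was possible because each genotype has 1 array. Of 45 member values under centring, loess or the mean over probe sets, 0 moved by as much as the spread of genes of like signal. Cyp2s1 (0.01) was the only member to change sign. Much of this was fixed beforehand. Centring shifts every gene by 0.0085, below the smallest spread of these members, 0.088. The mean over probe sets can change Cyp2f2 alone, since the other members at the floor have a single probe set. Leaving out pseudogenes could change nothing either, as Cyp2c53-ps was below the floor. The median of members (-0.11) was -0.0226 with no floor, -0.0403 as a mean, and -0.12 over the 13 members at the floor on both arrays, a choice made after seeing the data. The count higher by 1.2-fold (1) was 0 with a floor of 7 or at 1.5-fold, and 9 with no floor. The count lower (0) was 1 with a floor of 5, with centring and with loess, and 13 with no floor. With no floor, drug-metabolising members had a median of -0.0386, sterol members -0.0056, regulators 0.0479 and retinoic acid genes 0.037. With a floor of 7, Cyp2j members had a median of -0.0226 and haem genes 0.0662; with a floor of 5, sterol members had 0.0551. The changes with the floor follow from which dim genes are counted. Under centring and loess the gene that passes is Cyp2j9 (-0.27 and -0.28). Of 69 summary values, 53 stayed within 0.05 on the log2 scale or, for counts, within 1.5 times.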

Other observations

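Some probe sets were annotated to more than 1 P450 gene and belonged to no member. One shared by Cyp2c67 and Cyp2c68 was at 2.73 in wild type and at 2.74 in the knockout. Both of those shared by Cyp3a41a, Cyp3a41b, Cyp3a11 and Cyp3a44 were at or under 2.86 on each array, with differences of 0.13. All 3 lay below the array medians. Besides Cyp2f2, 3 members had more than 1 probe set, all dim: Cyp11a1 (differences of -0.07 and 0.11), Cyp2c29 (0.34 and 0.15) and Cyp2c55 (0.06 and 0.50).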
